A study of Mus musculus with 18 samples.

Results

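The Myc, Max and Mxd network is a family of basic helix-loop-helix leucine zipper transcription factors. Its 9 members considered here, Myc, Mycl, Max, Mxd1, Mxd4, Mxi1, Mnt, Mlx and Mga, were taken by gene symbol from the 24485 genes listed in every library, and all 9 were found. The RNA-seq data covered 18 libraries of bone marrow-derived macrophages (BMDMs), cells grown out of bone marrow over 6 days in medium conditioned by L929 cells, from 3 male Il10-/- C57BL/6J mice, 12 weeks old. The 6 groups of 3 libraries were unstimulated cells, cells given 500 nM (+)-JQ1, cells given 10 ng/mL IL-10, and the same 3 conditions followed by lipopolysaccharide (LPS) at 50 ng/mL. (+)-JQ1 or IL-10 was given 12 hours before LPS or saline buffer, which was left on for 4 hours, so that cells given no LPS had been in (+)-JQ1 or IL-10 for 16 hours. The labels call cells without pretreatment untreated, whereas the study's methods describe vehicle-treated controls ahead of LPS. The methods call the unstimulated controls untreated. Comparisons with unstimulated cells may thus also differ in vehicle, which cannot be told apart here. All groups, controls included, lacked a working Il10 gene, so IL-10 was present only where it was added, and no wild-type cells were analysed here.

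Max is the shared partner of the network. Myc and Mycl pair with Max, bind the E-box sequence CACGTG and recruit cofactors that activate genes for growth and cell division. Mxd1, Mxd4, Mxi1 and Mnt pair with Max at the same sequence and recruit the Sin3 corepressor with its histone deacetylases, so they oppose Myc. Mga also pairs with Max and belongs to a Polycomb repressor complex, and Mlx pairs with Mnt, with some Mxd proteins and with the glucose-responsive factor Mlxip. (+)-JQ1 blocks the acetyl-lysine pockets of the BET proteins, and loss of Myc RNA is a known effect of it in many tumour cells. LPS is a component of the bacterial cell wall that activates macrophages through Toll-like receptor 4.

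Because proteins of the network bind the E-box, the promoter windows of the members were read from RefSeq (GRCm38.p6; 250 bases before to 50 after the start). The table held 10 windows for 8 of the 9 members; Myc had no entry. CACGTG was in 4 of these 10 windows, those of Max, Mxd4, Mnt and Mlx, against 7.15% of all 32851 windows. The 5 windows below belong to the members with the largest changes in RNA after LPS, 3 that rose and 2 that fell; each is written 5′ to 3′ on the strand of its gene, with CACGTG in capitals. Each matched the mm9 genome (NCBIM37), the build of the deposited files, at a single place: Mycl at chr4:122672924-122673223 (plus strand), Max at chr12:78063186-78063485 (minus), Mxd1 at chr6:86619104-86619403 (minus), Mxd4 at chr5:34530310-34530609 (minus) and Mnt at chr11:74644176-74644475 (plus).
Mycl: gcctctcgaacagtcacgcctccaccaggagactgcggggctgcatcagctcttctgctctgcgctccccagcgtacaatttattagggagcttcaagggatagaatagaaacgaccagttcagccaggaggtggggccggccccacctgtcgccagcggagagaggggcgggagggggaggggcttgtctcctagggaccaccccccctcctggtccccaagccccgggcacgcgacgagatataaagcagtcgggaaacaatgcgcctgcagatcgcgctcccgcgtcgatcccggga
Max: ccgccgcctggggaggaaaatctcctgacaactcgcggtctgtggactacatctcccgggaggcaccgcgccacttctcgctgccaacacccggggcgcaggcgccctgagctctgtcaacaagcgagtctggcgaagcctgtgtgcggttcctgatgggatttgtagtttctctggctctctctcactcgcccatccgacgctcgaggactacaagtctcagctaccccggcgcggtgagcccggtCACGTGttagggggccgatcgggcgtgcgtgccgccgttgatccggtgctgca
Mxd1: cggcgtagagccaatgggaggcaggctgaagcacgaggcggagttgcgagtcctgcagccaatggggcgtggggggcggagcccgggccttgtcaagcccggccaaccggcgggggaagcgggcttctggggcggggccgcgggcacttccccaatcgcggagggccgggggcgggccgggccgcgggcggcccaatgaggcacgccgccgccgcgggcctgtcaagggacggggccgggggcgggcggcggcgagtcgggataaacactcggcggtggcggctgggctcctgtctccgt
Mxd4: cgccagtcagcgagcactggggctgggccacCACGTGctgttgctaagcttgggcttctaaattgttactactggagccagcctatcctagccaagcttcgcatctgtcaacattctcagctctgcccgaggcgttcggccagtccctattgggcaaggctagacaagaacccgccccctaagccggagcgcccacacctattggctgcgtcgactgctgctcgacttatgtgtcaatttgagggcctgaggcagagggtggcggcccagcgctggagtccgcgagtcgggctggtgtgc
Mnt: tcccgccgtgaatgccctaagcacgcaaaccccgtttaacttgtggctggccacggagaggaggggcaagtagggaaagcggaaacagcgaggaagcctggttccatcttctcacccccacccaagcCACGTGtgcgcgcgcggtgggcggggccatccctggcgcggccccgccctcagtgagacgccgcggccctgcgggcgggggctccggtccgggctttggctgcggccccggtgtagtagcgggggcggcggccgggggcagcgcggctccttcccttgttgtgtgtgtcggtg
Positions are counted from the start, with 1 as the first base of the transcript. The RefSeq starts of Mycl, Mxd4, Mnt and Mlx lie inside the genes as annotated on mm9, that of Mycl furthest in. In Max the motif began at position -3 and spanned the start, in Mnt it began at -123, in Mxd4 at -219 and in the window of Mlx, not printed, at -40. The windows of Mycl and Mxd1 did not hold the motif, nor did those of Mxi1 and Mga. None of the 10 windows held the AP-1 letters TGANTCA, the interferon regulatory factor motif of 2 GAAA blocks with 2 bases of any kind between them or a kappa B motif on either strand, which 7.81%, 3.44% and 8.46% of all windows held. These matches describe letters in a window and do not show binding.

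Libraries held between 6781952 and 28289498 expected counts. All 8 macrophage markers (Adgre1, Csf1r, Cd68, Itgam, Lyz2, Mertk, Fcgr1 and Cd14) were detected, with summed relative abundances of 14300 to 29100 TPM, a unit that scales reads by transcript length and to a fixed total in each library. Markers of other cell types were low, with summed TPM of up to 74.0 for neutrophils (S100a8 and S100a9; Ly6g was at 0 in all libraries), 10.3 for stroma, 7.72 for T cells, 5.34 for B cells, 3.06 for dendritic cells and 1.33 for red cell precursors. Reads of Il10 remained in all groups, with mean normalised counts of 32.5 to 155, so RNA did not separate the genotype. LPS changed the make-up of the libraries so widely that scaling mattered. The median log2 fold change of expressed genes after LPS was -0.031 with the median-of-ratios factors used here, -0.11 with TMM factors, -0.96 with total-count scaling and -0.67 with TPM. In bulk RNA, fewer cells of a type and less RNA per cell cannot be told apart. Differences below are log2 fold changes of normalised counts from the DESeq2 Wald test, called at a Benjamini-Hochberg adjusted p under 0.05 over all genes.

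LPS changed the RNA of 7 of the 9 members, 4 higher (Myc, Mycl, Max and Mxd1) and 3 lower (Mxd4, Mxi1 and Mnt), and among all tested genes 31.6% were called higher and 32.9% lower, or 64.5% in all. Among genes whose mean count over all libraries was at least that of Myc, the lowest member by this mean, 84.1% were called. The number of members called was therefore near that of other well expressed genes. Mycl reached this mark through its LPS and LPS + IL-10 counts, and averaged 21.85 normalised counts in unstimulated cells. The members' median log2 fold change was 0.19 against -0.068 over all tested genes. Without LPS, (+)-JQ1 changed 5 members, Mxd1, Mxi1 and Mga higher and Myc and Mycl lower, where 21.9% of all genes were called higher and 23.7% lower (45.7% in all, and 57.3% of genes expressed at least as highly as Myc). IL-10 without LPS changed 1 member, Mycl, which was lower, against 1.8% of all genes higher and 1.01% lower (2.81% in all, 4.7% of the well expressed ones).

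In LPS + JQ1 against LPS, 8 members were called, with Mxd4, Mxi1, Mnt, Mlx and Mga higher and Mycl, Max and Mxd1 lower. Of all genes, 24.4% were higher and 32.9% lower (57.3% in all, 74.8% of the well expressed ones). In LPS + IL-10 against LPS 3 members were called, Mxd1 and Mnt higher and Max lower, beside 8.38% of all genes higher and 8.81% lower (17.2% in all, 24.2% of the well expressed ones). The (+)-JQ1 and IL-10 pretreatments differed after LPS in 7 members, 4 higher with (+)-JQ1 (Mxd4, Mxi1, Mnt and Mga) and 3 lower (Mycl, Max and Mxd1), with 23.8% of all genes higher and 31.6% lower (55.3% in all, 73.4% of the well expressed ones).

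Pretreated cells also responded to LPS. Given (+)-JQ1, 8 members changed with LPS, 5 higher and 3 lower, against 27.6% of all genes higher and 31% lower (58.6% in all, 75% of the well expressed ones). Given IL-10, all 9 changed, 5 higher and 4 lower, against 33.2% higher and 33.8% lower (67% in all, 83.6% of the well expressed ones), although Myc and Mlx turned to lower values with TPM and total-count scaling. The LPS response differed between (+)-JQ1 and untreated cells, by the interaction, in 6 members, with 3 interactions above 0 and 3 below it, where 17.7% of all genes were above and 23.8% below (41.5% in all, 56.2% of the well expressed ones). For IL-10 no interaction was called by DESeq2, though 5 had an unadjusted p under 0.05, and 4% of all genes were above and 3.44% below (7.44% in all, 10.6% of the well expressed ones); total-count scaling called 2.

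**Figure D1:**
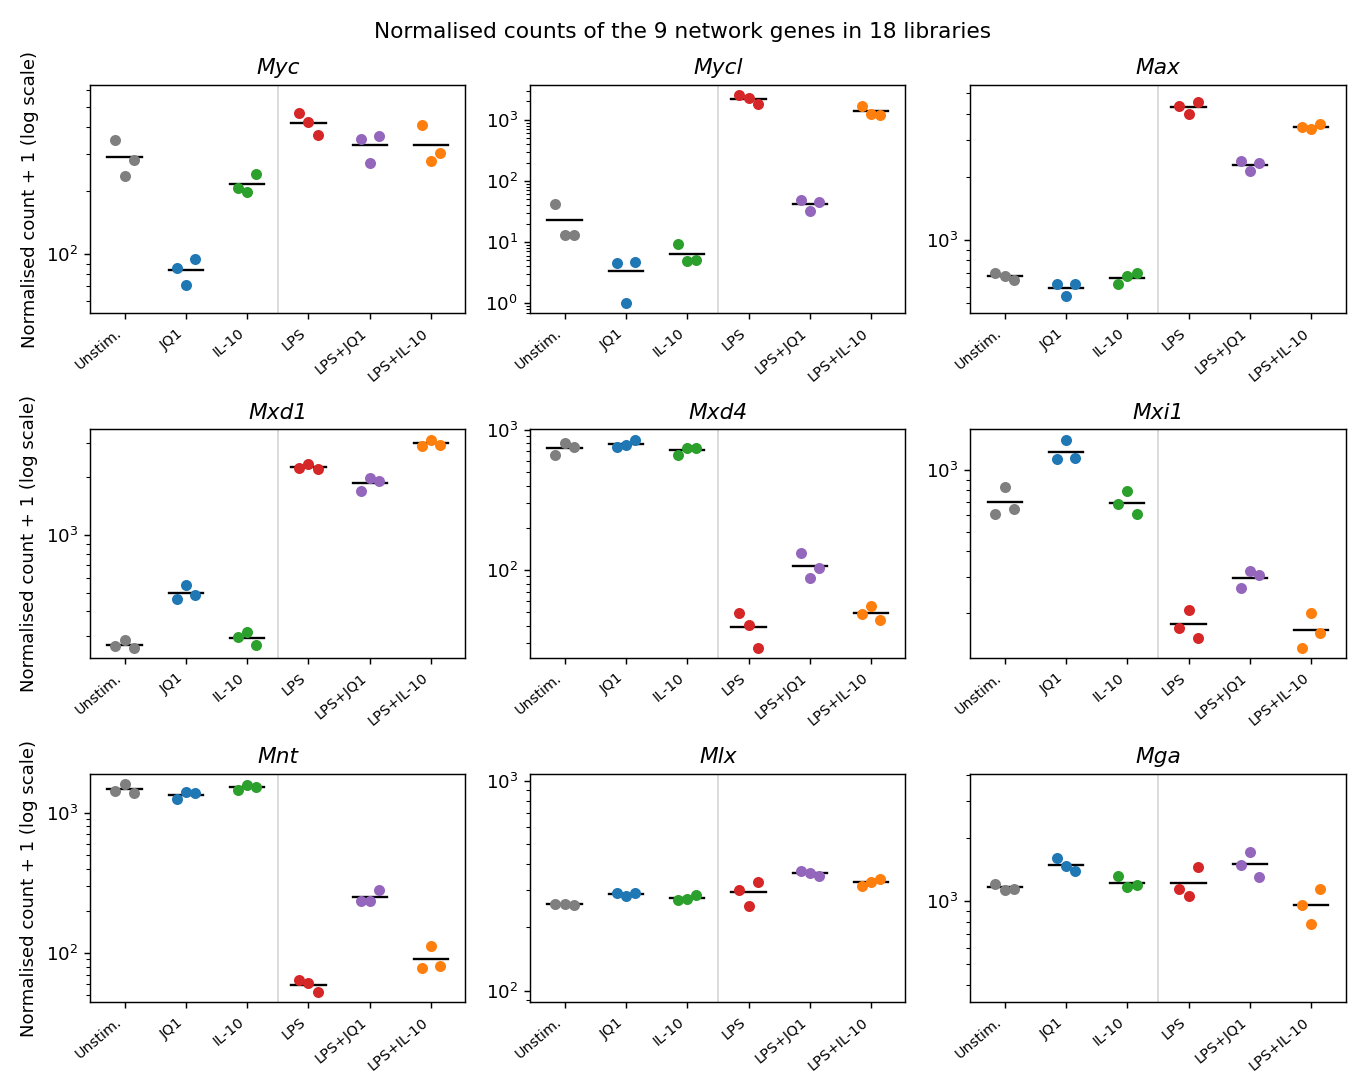
Normalised counts plus 1 of each member on a log scale, by group; points are replicates 1 to 3 from left to right and bars are means. Unstim. stands for unstimulated, untreated cells. Mycl is high in the LPS and LPS + IL-10 groups. Max is high in all 3 groups given LPS, least so in LPS + JQ1. Mnt and Mxd4 are low in all 3 groups given LPS, and Mlx and Mga vary little.

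**Figure D2:**
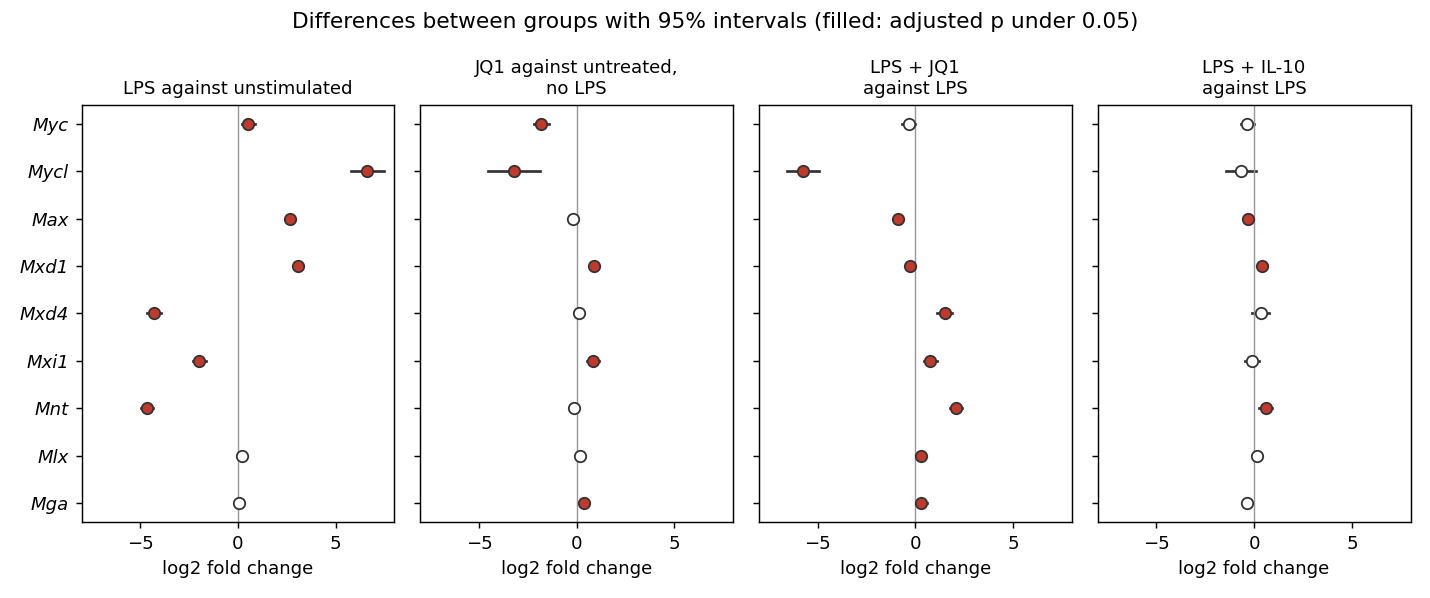
Log2 fold changes of the 9 members in 4 comparisons, with 95% intervals as lines; filled points passed an adjusted p under 0.05 (DESeq2 Wald test, 3 libraries per group). Mycl shows the widest swings, 6.61 with LPS and -5.75 when (+)-JQ1 preceded LPS; the directions of Myc with LPS and of Mxd1 in LPS + JQ1 against LPS turned under total-count and TPM scaling.

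Myc (mm9 chr15:61816946-61821929, plus strand) is the founding member and drives ribosome production and division. Unstimulated libraries held 349.5, 233.4 and 279.5 normalised counts, here and below in the order of replicates 1, 2 and 3, and those given (+)-JQ1 held 84.75, 69.99 and 93.41. All 3 libraries given (+)-JQ1 lay below all unstimulated libraries, and the fold change was -1.81 on the log2 scale (SE 0.19, adjusted p 5.59e-20), or 3.5-fold lower. With IL-10 the counts were 204.2, 196.7 and 238.4, overlapping those of unstimulated cells, and the difference was not called (-0.45, adjusted p 0.206).

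After LPS the Myc counts were 466.6, 421.9 and 367.1, above all unstimulated libraries. This rise was small (log2 fold change 0.53, SE 0.175, adjusted p 0.00442). It turned into -0.40 under total-count scaling, which was called lower (adjusted p 0.0263), and -0.21 with TPM, which was not called (0.245). On both scales the median gene fell too. Relative to the median expressed gene the difference was 0.56 with median-of-ratios, TMM and total-count scaling. These scalings shift all genes alike, so the same value follows by construction. With TPM it was 0.46. Cells given (+)-JQ1 before LPS held 353.4, 268.5 and 361.9. All 3 were below the lowest LPS library, 1 of them narrowly, and the difference of -0.35 did not pass (adjusted p 0.0732, interval -0.69 to -0.01). It passed with a replicate block (-0.36, adjusted p 0.0216) and with block and lane together (-0.36, 0.0294). It also passed without LPS replicate 3 (-0.44, 0.0417), while the value under total-count scaling was 0.024.

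The effect of (+)-JQ1 on Myc differed with LPS, and this difference was itself tested: the interaction was 1.45 (SE 0.258, adjusted p 1.49e-07). In cells kept in (+)-JQ1, LPS raised Myc by 1.98 on the log2 scale, or 3.95-fold. Counts with LPS + IL-10 were 410.0, 276.7 and 302.0, and these did not differ from LPS + JQ1 by a detectable amount (-0.0078, interval -0.35 to 0.34).

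The RNA of 8 markers of cycling cells was set beside Myc. With (+)-JQ1 alone, where Myc fell, all 8 were called lower, against 23.7% of all genes. Their summed TPM was 234 to 272 against 429 to 511 in unstimulated cells. The paper reports that (+)-JQ1 left viability and cell cycle progression, the latter measured by BrdU incorporation, unaffected in BMDMs of this genotype. That assay was separate from these libraries, and whether the fall in marker RNA reflects fewer dividing cells was not tested. With LPS, where Myc was called higher, 3 markers were called higher and 5 lower, with a list median of -0.61, and the summed TPM of 373 to 477 overlapped that of unstimulated cells. This sum is mostly Pcna, at 336 to 402 TPM in unstimulated cells and 291 to 380 with LPS. The division marker Mki67 stood at 18.5 to 24.3 TPM in unstimulated and 50.5 to 65 in LPS libraries, while the topoisomerase gene Top2a stood at 14.2 to 20.1 and 4.13 to 7.63. In LPS + JQ1 against LPS, where the fall of Myc did not pass, 7 markers were called lower, against 32.9% of all genes, and the sum was 286 to 361 TPM. The part of cycling cells in the Myc values was not tested. Pvt1, the long noncoding RNA gene next to Myc, was low, with a mean of at most 15 normalised counts in each of the groups compared here, and it fell with (+)-JQ1 (log2 fold change -1.74, adjusted p 0.00336) and with LPS (-1.46, adjusted p 0.0126).

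Mycl (mm9 chr4:122672895-122679728, plus strand), called L-Myc as a protein and known for its use in dendritic cells, showed the largest changes of the network. It had almost no reads in resting cells, with normalised counts of 41.66, 11.84 and 12.07 in unstimulated libraries. After LPS the counts were 2517, 2280 and 1816, a rise of 6.61 on the log2 scale (SE 0.429) or 97.8-fold, and 7.52 without unstimulated replicate 1, which stood above the other resting libraries.

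With (+)-JQ1 ahead of LPS, Mycl was far lower. The LPS + JQ1 libraries held 47.49, 31.59 and 44.32, far below every LPS library, near unstimulated replicate 1 and above the other two unstimulated libraries. The difference from LPS alone was -5.75 (SE 0.415, adjusted p 2.84e-42), 53.7-fold lower. LPS still raised Mycl in cells kept in (+)-JQ1, by 4.08 on the log2 scale (SE 0.659, adjusted p 2.42e-09), which rested on 109 reads against 8, a ratio after scaling of 16.7 with a counting interval of 8.16 to 39.6. LPS + IL-10 libraries, in contrast, kept high Mycl at 1670, 1240 and 1213. None of these reached the lowest LPS library, yet the difference of -0.68 did not pass (adjusted p 0.268). It passed with edgeR (adjusted p 0.0312), with these groups compared alone (0.00108) and with a replicate block and a lane term together (0.000116), but not with the block alone (0.215) or the lane alone (0.173). Between LPS + JQ1 and LPS + IL-10 the difference was -5.06 (33.5-fold lower with (+)-JQ1).

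Without LPS, Mycl was near the limit of detection, and it had 8 reads in all over the 3 libraries given (+)-JQ1, 1 of which had none, against 79 in unstimulated cells. The ratio after scaling was 0.105, with an interval for counting error only of 0.0438 to 0.217. The fitted difference was -3.21, and -2.29 without unstimulated replicate 1. For IL-10 the ratio rested on 31 reads, and the fitted -1.97 (adjusted p 0.00706) rested on unstimulated replicate 1, and was -1.0 without it (adjusted p 0.292). The interaction of LPS with (+)-JQ1, -2.54 (SE 0.786, adjusted p 0.00427), was not called by edgeR (adjusted p 0.147).

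Markers of lymphocytes and dendritic cells were set beside Mycl. Of 5 T cell markers, Cd247 and Lck followed the same course, with Lck at 3.88 to 4.46 TPM after LPS, 0.22 to 0.52 in LPS + JQ1 and at most 0.28 without LPS, while the defining genes Cd3d, Cd3e and Cd3g never exceeded 0.25 TPM. Of 5 dendritic cell markers, Xcr1 was at 1.07 to 1.42 TPM after LPS and 0.05 to 0.18 in LPS + JQ1, whereas Zbtb46 was at 0.64 to 1.16 TPM after LPS and 0.71 to 1.2 in LPS + JQ1, which overlap, and Flt3, Clec9a and Siglech stayed at or below 0.33 TPM throughout. The summed dendritic cell list was 2.15 to 3.06 TPM with LPS and 1.15 to 1.46 with LPS + JQ1, where Mycl itself was at 49.7 to 59.7 and 1.05 to 1.40 TPM. Their part in the Mycl values was not tested.

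Max (mm9 chr12:78038256-78063235, minus strand), whose promoter window carries CACGTG across its start, rose 6.41-fold with LPS. Its normalised counts of 697.4, 671.4 and 642.2 in unstimulated cells became 4339, 4006 and 4548 after LPS (log2 fold change 2.68, SE 0.0762). LPS + JQ1 libraries held 2390, 2133 and 2341, between the resting and the LPS levels with no overlap, and differed from LPS by -0.91 (SE 0.0716, adjusted p 9.35e-36).

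IL-10 also lowered Max after LPS, though less. The counts were 3443, 3381 and 3563, all below the LPS libraries (-0.31, SE 0.071, adjusted p 0.000177), while the difference was not called with TPM (-0.20, adjusted p 0.211) or with the 2 groups compared alone (-0.30, 0.0525). Without LPS, Max was at 618.3, 538.2 and 614.5 with (+)-JQ1, a difference of -0.18 that fell just short of the threshold (adjusted p 0.058) and passed with edgeR (0.0422) and TMM factors (0.0355). The (+)-JQ1 effect was larger under LPS (interaction -0.73, SE 0.109), though this interaction was not called under total-count scaling (-0.18) or with TPM (-0.22).

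Mxd1 (mm9 chr6:86597038-86619153, minus strand), a repressor that in other lineages rises when cells stop dividing and mature, was the only one of the 4 repressors to rise with LPS. Its counts went from 262.3, 282.4 and 258.7 to 2216, 2338 and 2198, or 8.47-fold (log2 fold change 3.08, SE 0.0899). In resting cells (+)-JQ1 raised it to 463.5, 551.0 and 483.6, above all unstimulated libraries (0.91, SE 0.0948, adjusted p 2.53e-20).

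Under LPS the 2 pretreatments moved Mxd1 apart. LPS + IL-10 libraries held 2912, 3118 and 2924, above every LPS library (0.41, SE 0.0767, adjusted p 2.73e-06). LPS + JQ1 libraries held 1690, 1983 and 1897, below every LPS library (-0.28, SE 0.0775, adjusted p 0.000812), but this fall was not called with TMM factors (-0.16, adjusted p 0.0733) and the value was 0.10 under total-count scaling and 0.025 with TPM. Relative to the median expressed gene it was -0.19 with the 3 count scalings, which give the same value by construction since they shift all genes alike. LPS + JQ1 lay below LPS + IL-10 by -0.68 under median-of-ratios scaling and by -0.40 under total-count scaling. The interaction of LPS with (+)-JQ1 was -1.19 (SE 0.122).

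Mnt (mm9 chr11:74644422-74659227, plus strand), the repressor found in most cells at rest and in division alike, fell steeply with LPS. Unstimulated libraries held 1432, 1593 and 1372 normalised counts, and LPS libraries held 63.62, 59.97 and 51.57, which is 25.1-fold lower (log2 fold change -4.65, SE 0.148; interval -4.94 to -4.36). The counts in LPS + JQ1 were 234.1, 233.8 and 280.7, 4.27-fold above LPS alone (2.09, SE 0.157, adjusted p 2.8e-39) and still 5.38-fold below cells given (+)-JQ1 without LPS.

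With LPS + IL-10 the Mnt counts were 77.14, 111.0 and 79.34, above every LPS library (0.59, SE 0.177, adjusted p 0.00746), a call lost without LPS replicate 3 (adjusted p 0.0611) or LPS + IL-10 replicate 2 (0.151) and with the 2 groups compared alone (0.191). Without LPS, Mnt at 1244, 1406 and 1370 with (+)-JQ1 overlapped the unstimulated libraries (-0.12, adjusted p 0.265), though the fall was called under total-count scaling (-0.30, adjusted p 0.000508) and with TPM (-0.33, 0.0125). The interaction with (+)-JQ1 was accordingly 2.22 (SE 0.181), the largest positive interaction among the members.

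Mxd4 (mm9 chr5:34516536-34530369, minus strand), a repressor linked to differentiated, non-dividing cells, followed Mnt. Its counts of 658.0, 805.0 and 750.1 in unstimulated cells dropped to 48.07, 39.29 and 27.01 with LPS, 19.4-fold lower (-4.28, SE 0.185; interval -4.64 to -3.92, which overlaps that of Mnt). In LPS + JQ1 they were 130.3, 87.41 and 102.2, above all LPS libraries (1.49, SE 0.202, adjusted p 7.06e-13), and in LPS + IL-10 they were 47.36, 54.72 and 43.28, overlapping them (0.34, adjusted p 0.373). (+)-JQ1 without LPS left Mxd4 at 756.7 to 846.2, overlapping unstimulated cells (0.11, interval -0.11 to 0.33).

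Mxi1 (mm9 chr19:53384996-53450300, plus strand), a repressor known for its antagonism to Myc, fell with LPS but less steeply. Unstimulated libraries held 607.9, 830.4 and 643.5, and LPS libraries 168.2, 204.7 and 149.8 (-1.98, SE 0.165; 3.95-fold lower). (+)-JQ1 raised it by a like amount in both states, to 1132, 1409 and 1151 without LPS (0.83, SE 0.151) and to 262.8, 321.2 and 304.1 with LPS (0.76, SE 0.17), and the interaction of -0.074 (interval -0.52 to 0.37) did not pass. IL-10 gave 134.0 to 197.6 with LPS, overlapping LPS alone (-0.10, adjusted p 0.8).

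Mlx (mm9 chr11:100948591-100953521, plus strand) and Mga (mm9 chr2:119722964-119795317, plus strand), which tie the network to glucose sensing and to Polycomb repression, changed little with median-of-ratios factors. Mlx counts were 258.4, 257.1 and 254.7 in unstimulated cells and 299.7, 252.3 and 327.8 with LPS, which overlap (0.19, adjusted p 0.101). The LPS value turned to -0.74 with total-count scaling (adjusted p 6.47e-12) and to -0.55 with TPM (0.000161), both called lower. With LPS + JQ1 Mlx was at 372.2, 362.3 and 349.6, above every LPS library (0.31, SE 0.0999, adjusted p 0.00424), a call lost without LPS replicate 2 (0.20, adjusted p 0.0963).

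Mga stood at 1207, 1130 and 1147 in unstimulated cells and at 1598, 1468 and 1386 after (+)-JQ1 (0.35, SE 0.136, adjusted p 0.0229). With LPS its counts were 1137, 1060 and 1446 (0.064, adjusted p 0.714). The LPS value turned to -0.86 with total-count scaling (adjusted p 3.89e-09) and to -0.65 by TPM (0.00132), both called lower. The (+)-JQ1 libraries without LPS stood above the unstimulated ones, but the difference was not called under total-count scaling (0.18, adjusted p 0.327) or with TPM (0.13, adjusted p 0.54), nor without unstimulated replicate 2 or 3 or (+)-JQ1 replicate 1 (adjusted p 0.0704, 0.0694 and 0.108). LPS + JQ1 libraries held 1488, 1707 and 1300 and overlapped LPS, with a difference of 0.30 at an adjusted p of 0.046 that was lost with a term for sequencing lane (0.0547) and without LPS replicate 1 or 2 or LPS + JQ1 replicate 1 or 2 (adjusted p 0.0894 to 0.253). LPS + IL-10 libraries held 956.8, 776.8 and 1138, below LPS + JQ1 with no overlap (0.64 higher in LPS + JQ1, SE 0.137).

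**Figure D3:**
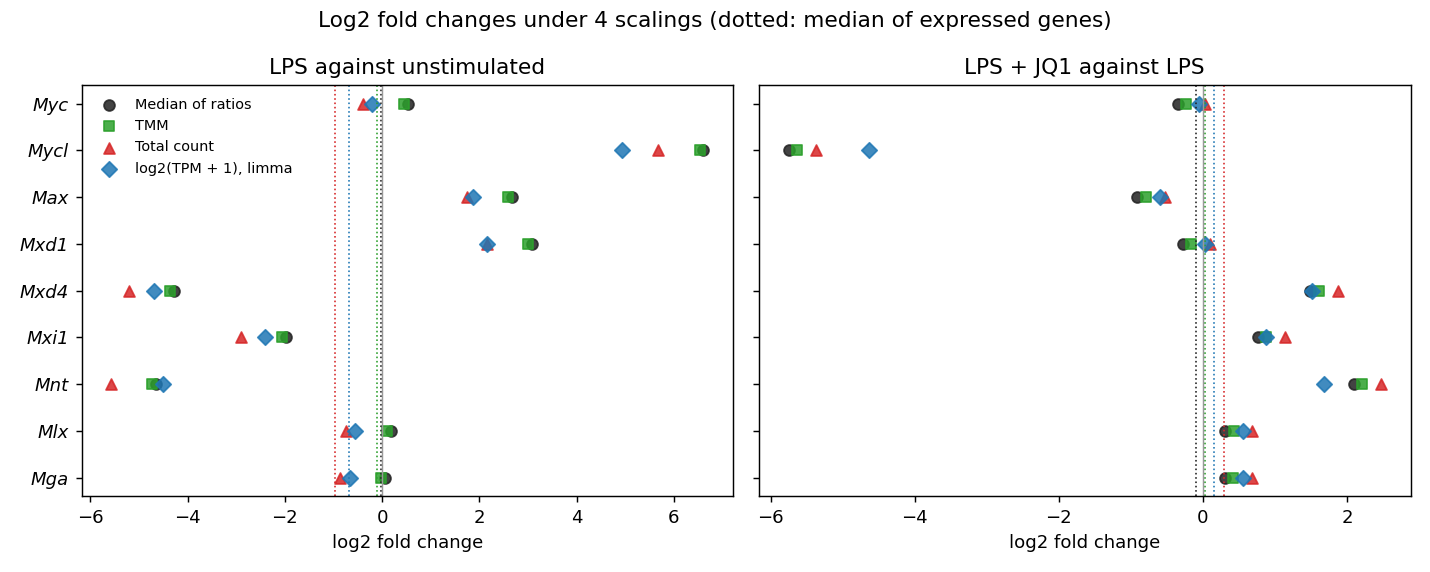
Log2 fold changes of each member under median-of-ratios, TMM, total-count and TPM scaling, for LPS against unstimulated cells and LPS + JQ1 against LPS; dotted lines mark the median of expressed genes on each scale. With LPS the median gene lay at -0.031 to -0.96, and Myc, Mlx and Mga changed side of 0 while Mycl, Max, Mxd1, Mxd4, Mxi1 and Mnt did not; in LPS + JQ1 against LPS, Myc and Mxd1 did.

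Levels of different genes were compared per length, as TPM. In unstimulated cells Mxd4 was the most abundant member at 102 ± 8.05 TPM (SD, n = 3), followed by Max at 51.1 ± 2.5, Mnt at 45.6 ± 1.93, Mlx at 21.0 ± 0.650, Mxi1 at 19.4 ± 2.69, Myc at 17.9 ± 4.03, Mga at 11.6 ± 0.680, Mxd1 at 8.20 ± 0.102 and Mycl at 0.933 ± 0.752. The ranges of Mlx and Mxi1 overlapped, as did those of Mxi1 and Myc, and the other neighbours in this order were apart. After LPS the order was led by Max at 192 ± 23.8 TPM, Mycl at 55.4 ± 5.14 and Mxd1 at 40.3 ± 2.89, and it ended with Mxd4 at 3.05 ± 0.653, Mxi1 at 2.85 ± 0.407 and Mnt at 1.06 ± 0.0404. Here Myc (15.1 ± 0.721) overlapped Mlx (14.2 ± 2.52), and Mxd4 overlapped Mxi1.

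The repressor RNAs changed both in summed TPM and in kind. The summed TPM of Mxd1, Mxd4, Mxi1 and Mnt was 176 ± 11.2 in unstimulated cells, 175 ± 7.73 with (+)-JQ1 and 182 ± 7.78 with IL-10. LPS alone left 47.2 ± 2.52, LPS + JQ1 63.4 ± 4.56 and LPS + IL-10 66.6 ± 6.08. Mxd4 made up 58.2% ± 1.67 of this sum in unstimulated cells and 6.50% ± 1.70 with LPS, while Mxd1 went from 4.69% ± 0.257 to 85.2% ± 2.10. With LPS + JQ1 the share of Mxd1 was 64.8% ± 3.49, and Mxd4 and Mnt held 16.9% ± 4.11 and 8.86% ± 0.827, where LPS alone left Mnt 2.24% ± 0.180. With LPS + IL-10 Mxd1 held 86.7% ± 1.25. These shares come from within a library and so do not depend on its scaling factor. The sums, here and for Myc with Mycl below, do depend on the TPM scale. On that scale the median log2 fold change of expressed genes was -0.67 with LPS and 0.16 in LPS + JQ1 against LPS. No test was made on sums over members.

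The sum of Myc and Mycl was 18.8 ± 4.72 TPM in unstimulated cells, of which Mycl was 4.56% ± 2.60. With LPS it was 70.5 ± 5.83 TPM, with 78.6% ± 0.865 from Mycl. LPS + JQ1 cells had 15.9 ± 2.06 TPM, 8.0% ± 0.408 of it from Mycl, and LPS + IL-10 cells had 50.1 ± 6.29 TPM, 74.6% ± 1.23 of it from Mycl. The pool of LPS + JQ1 cells, 13.6 to 17.6 TPM, overlapped that of unstimulated cells, 14.4 to 23.8 TPM, and was mostly Myc in both.

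The ratio of Myc to the 4 repressors, in TPM, was 0.103 ± 0.0299 in unstimulated cells, 0.0255 ± 0.00403 with (+)-JQ1 and 0.0759 ± 0.00914 with IL-10. It reached 0.321 ± 0.0322 in LPS, 0.232 ± 0.0396 in LPS + JQ1 and 0.195 ± 0.0496 in LPS + IL-10 cells. The ratios of the LPS libraries, 0.357, 0.308 and 0.296, lay above those of LPS + JQ1, 0.259, 0.187 and 0.250, and those of LPS + IL-10, 0.250, 0.153 and 0.183. With Mycl counted too, the ratio was 0.109 ± 0.0343 in unstimulated, 1.5 ± 0.193 in LPS, 0.252 ± 0.0438 in LPS + JQ1 and 0.763 ± 0.172 in LPS + IL-10 cells. Max relative to the sum of Myc, Mycl and the 4 repressors was 0.264 ± 0.0219 in unstimulated cells and 1.63 ± 0.269, 1.59 ± 0.0876 and 1.42 ± 0.127 in those given LPS alone, after (+)-JQ1 or after IL-10, whose ranges overlapped. RNA ratios of this kind say nothing of protein amounts, and Myc proteins are known to be short-lived.

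**Figure D4:**
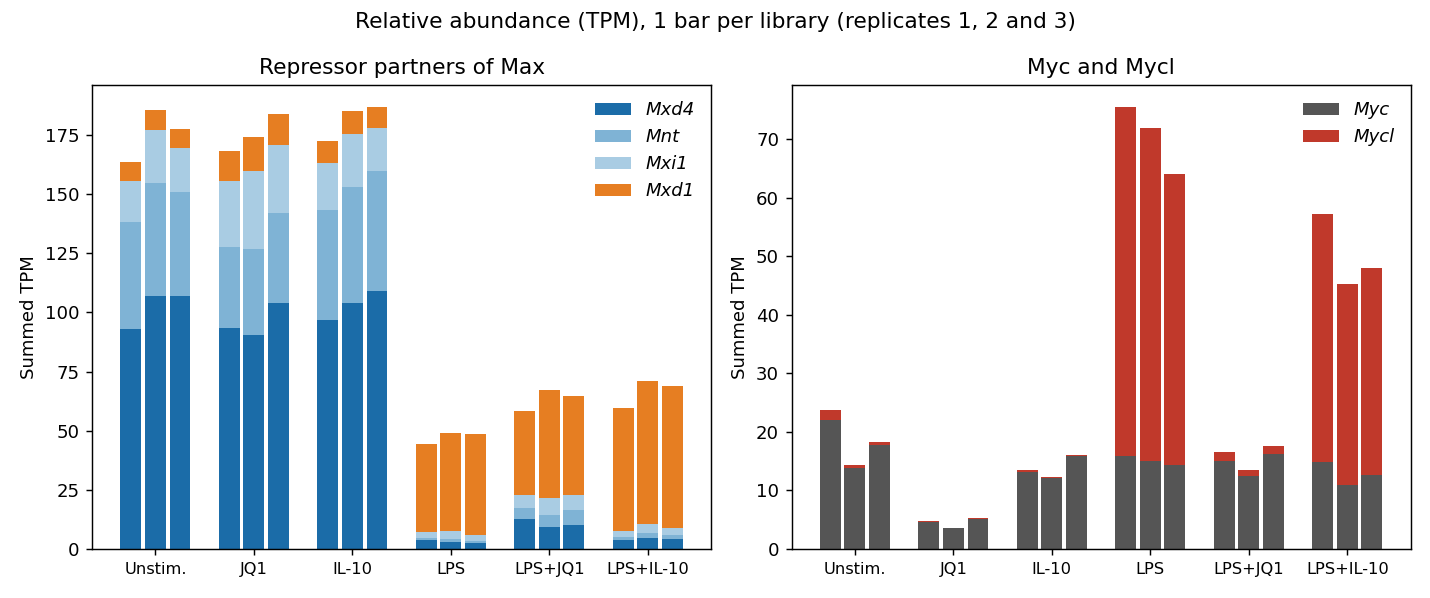
Summed TPM of the 4 repressors (left) and of Myc with Mycl (right), 1 bar per library in groups of 3. The repressor sum is 163 to 187 without LPS, led by Mxd4, and 44.3 to 71.2 with LPS, led by Mxd1; Mycl makes up most of the Myc and Mycl sum with LPS and with LPS + IL-10, and little of it elsewhere.

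Genes that work with the network were taken from lists of known partners and targets, and the counts after LPS turned on the scaling, so members whose direction flipped are named. The counts are to be read against the shares of all tested genes. LPS raised 31.6% of these and lowered 32.9% with median-of-ratios factors, and 15.2% and 60.5% with total-count scaling. For (+)-JQ1 alone the shares were 21.9% and 23.7%, against 12.2% and 33.4%. For LPS + JQ1 against LPS they were 24.4% and 32.9%, against 37.7% and 20.4%, and for LPS + IL-10 against LPS 8.38% and 8.81%, against 12.8% and 5.23%. Shares were higher among well expressed genes, and with 2 to 22 genes in a list, nothing is called particular to a list.

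Among 12 cofactors of Myc, LPS raised 7 and lowered 3 with median-of-ratios factors, but 1 and 10 under total-count scaling, shifts in the direction of those of all genes. Ep400, the motor of a histone acetyltransferase complex, rose from 1910 to 8626 normalised counts (log2 fold change 2.17). Actl6a (0.82) and Kat5 (0.67) turned to -0.11 and -0.26 under total-count scaling. (+)-JQ1 raised 3 and lowered 7 of the 12 both without and with LPS, the latter split being 5 and 3 under total-count scaling. Trrap, the scaffold of these complexes, rose with (+)-JQ1 by 0.77 without LPS and 1.26 with it, Paf1 of the elongation machinery by 0.78 and 1.07, while the helicase gene Ruvbl1 fell without LPS (-1.02) and Zbtb17, the partner through which Myc represses genes, was lower in LPS + JQ1 than in LPS (-0.77). With IL-10 after LPS, Paf1 was higher (0.28) and Zbtb17 lower (-0.34), the only calls of 12.

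Of 9 corepressor partners of the Mxd proteins and Mnt, LPS raised 5 and lowered 1 (2 and 4 under total-count scaling). Sap30, a subunit that holds the Sin3 complex together, rose from 399.4 to 6191 counts (3.96) and the deacetylase Hdac1 from 502.2 to 1720 (1.78), while the scaffold Sin3a fell from 1034 to 486.1 (-1.09). All 3 moved the other way in LPS + JQ1 against LPS, Sap30 by -1.45, Hdac1 by -1.01 and Sin3a by 1.32, where 1 member of the list was called higher and 4 lower (4 and 2 under total-count scaling). Without LPS (+)-JQ1 raised Ncor1, Sin3a and Sin3b by 0.21 to 0.41, Sin3b turning to -0.0905 with TPM, and lowered none (1 higher and 1 lower under total-count scaling). IL-10 after LPS lowered Sap30 (-0.38) and changed no other of the 9.

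Among 9 partners of Mga in its Polycomb complex, LPS raised 3 and lowered 5 (1 and 8 under total-count scaling). E2f6, a DNA-binding subunit, fell from 202.8 to 35.93 counts (-2.49), Cbx3 fell (-1.54) and the ubiquitin ligase Rnf2 rose (1.24). In LPS + JQ1 against LPS 4 were higher and 3 lower (6 and 0 under total-count scaling), with E2f6 up by 1.69, Ring1 by 0.72 and Rybp by 0.69. (+)-JQ1 alone raised Rybp (0.91) and Ring1 (0.52) and lowered L3mbtl2 (-1.02), with 3 higher and 1 lower in all (2 and 3 under total-count scaling). Rybp was the only one changed by IL-10 after LPS (0.39).

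The list of Myc protein turnover, 12 ubiquitin ligases, deubiquitinases and the like, held 9 genes raised and 1 lowered by (+)-JQ1 without LPS, and 8 and 1 with LPS (5 and 1, and 11 and 1, under total-count scaling), where 21.9% and 24.4% of all genes were higher. Stub1, a chaperone-linked ligase, rose by 1.07 and 1.2, the deubiquitinase Usp37 by 0.57 and 1.11, Usp36 by 0.74 with LPS, and Fbxw7, the ligase best known for Myc, by 0.55 without LPS. LPS raised 5 and lowered 5 (0 and 12 under total-count scaling); of these Huwe1 (0.75) and Trpc4ap (0.72) turned to -0.17 and -0.20 under total-count scaling, and Usp28 fell (-0.54). With IL-10 after LPS Fbxl14 alone was called (0.25).

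Textbook targets of Myc did not move as 1 group. Of 22 activated targets, LPS raised 10 and lowered 7 (3 and 18 under total-count scaling), (+)-JQ1 raised 6 and lowered 7 without LPS, and it raised 8 and lowered 6 with LPS (15 and 3). IL-10 after LPS raised 1 and lowered 2. Their medians in these comparisons were 0.21, 0.013, 0.083 and -0.13, beside -0.068, -0.00061, -0.11 and -0.018 for all tested genes. Ccnd2, a D-type cyclin, went from 49.12 to 12080 counts with LPS (7.90) and fell by 2.29 when (+)-JQ1 came first and by 0.69 with IL-10. Odc1, which makes putrescine, rose with LPS (1.54) and rose further with LPS + JQ1 against LPS (2.30). Ppat of purine synthesis rose there too (1.70), and Eif4e, the cap-binding factor, rose with LPS (1.57). Without LPS, (+)-JQ1 raised the nucleolar gene Ncl (0.76) and lowered Nme1 (-0.92) and the spermidine synthase gene Srm (-0.86). IL-10 raised the lactate dehydrogenase gene Ldha after LPS (0.40) and lowered Ncl (-0.21).

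Of 5 genes that Myc is known to repress, (+)-JQ1 raised all 5 without LPS (4 under total-count scaling), and 4 with LPS where it lowered Cdkn1a, beside 21.9% and 24.4% of all genes higher, and 57.3% and 74.8% of the well expressed ones called in either direction. Cdkn1a, which encodes the cell cycle inhibitor p21, went from 1129 to 81600 counts with LPS (6.18), was lower in LPS + JQ1 (-0.74) and in LPS + IL-10 (-0.68) than in LPS, and was raised by (+)-JQ1 alone (0.45). Gadd45a, a stress gene, fell with LPS (-0.85) and rose with (+)-JQ1 (1.07 without and 0.64 with LPS) and with IL-10 after LPS (1.44). Ndrg1 rose with (+)-JQ1 by 0.51 and 0.77, and Cdkn1b, the gene of p27, fell with LPS (-1.61) and was higher in LPS + IL-10 (0.60).

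Mlxip, the partner of Mlx, was higher with (+)-JQ1 (0.41 without and 0.15 with LPS), and its rise with LPS (0.66) was -0.27 under total-count scaling. Txnip, the target by which Mlx and Mlxip limit glucose uptake, went from 5891 to 22630 counts with (+)-JQ1 (1.94), fell with LPS (-1.12) and was higher in LPS + JQ1 than in LPS (1.27). Its relative Arrdc4 rose with (+)-JQ1 (0.83) but also with LPS (1.21).

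For each member, the genes most like it over the 18 libraries were found by Pearson correlation of log2 normalised counts among 8377 genes. These correlations are descriptions, since the libraries share groups and LPS parts them in most genes. For Myc they were Tcf7l2 (r = 0.956), Mdn1 (0.949) and Utp20 (0.932), the latter pair being ribosome assembly genes. For Mycl they were Lgals3bp, Gpc1 and Il2rg (0.986 each), for Max Il27 (0.998), Adgrg6 and Aebp2 (0.997 each), and for Mxd1 Atp6v0a2 (0.996), Ptprj (0.995) and Zcchc6 (0.993). Those most like Mxd4 were Nat8l (0.996), Zfp704 and Tnfrsf21 (0.995 each), those like Mnt Tmem104 (0.998), Tpra1 and Zfp395 (0.996 each), and those like Mxi1 Acox3 (0.992), Abcc3 (0.991) and Ccpg1 (0.989). Mlx and Mga had no gene as close, with Sec24a (0.898) and Cbx5 (0.912) at the top. Among the members themselves, Mxd4 and Mnt ran together (r = 0.99) and against Max (-0.99 for each).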

How the data were processed

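RNA of 18 libraries of bone marrow-derived macrophages (6 groups of 3) was sequenced by the authors as stranded, rRNA-depleted, paired-end libraries, aligned to mm9 with STAR and quantified against RefSeq transcripts with RSEM 1.2.31 at default settings, which does not use strand. The deposited expected counts, an estimated count per gene, were rounded to whole numbers here. The authors' RSEM run scales TPM by effective length to a fixed total per library. TPM was used here to compare levels between genes and in limma. It was also used for the marker levels, sums, shares and ratios given by group. The deposited effective length, another value per gene, served as an offset in 1 alternative. Between 5.4% and 6.63% of expected counts were not whole. FPKM values were not used, and no column of per-sample values was left unused for want of a label.

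All 18 libraries were fitted together with DESeq2 1.42.0 (R 4.3.3) by group, with median-of-ratios size factors and the Wald test, two-sided, with Benjamini-Hochberg adjustment over all genes and a threshold of 0.05. There were 8 comparisons of groups and 2 interactions. An adjusted p that DESeq2 did not give stayed missing. Alternatives were edgeR 4.0.16 (quasi-likelihood), TMM and total-count scaling, an effective length offset, limma 3.58.1 on log2(TPM + 1) and log2(TPM + 0.1), a filter of 10 counts in 3 libraries, the groups of a comparison alone, a replicate block, a lane term, both, and each library left out. Scripts were tested on simulated data.

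The labels describe matched samples from 3 mice but tie no replicate number to a mouse, so the replicate block stayed an alternative. Over the comparisons, the mean correlation of deviations of samples that share a number ran from -0.125 to 0.528. Replicate 1 was sequenced on lane 7 and replicate 3 on lane 8, and the replicate 2 libraries were split, those given LPS being on lane 8 and the rest on lane 7. No 2 libraries of a group agreed within sampling noise (chi-square per degree of freedom 3.97 to 28.3 over 18 pairs). Totals of 6781952 to 28289498 put 3 counts at 0.106 to 0.442 CPM, a limit that covers counting error only.

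The members and lists were chosen with earlier results of these data known. All 9 members are named. From each list, the 3 called genes of largest change, if their normalised counts averaged 100 or more, are named in each of 4 comparisons, and for each member the 3 genes with the highest Pearson correlation among genes with a mean of at least 100. Pvt1 and the marker genes were named in addition. Promoter windows came from RefSeq (GRCm38.p6) and were placed on mm9 by an exact match, and gene positions came from GENCODE.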

Additional observations from a re-analysis of the deposited data

Results flagged for a closer look

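The effect of (+)-JQ1 differed between cells with and without LPS for 6 of the 9 members, each by a test of the interaction itself (DESeq2 Wald test, adjusted over all genes, 3 libraries per group), where 41.5% of all tested genes were called. For Myc the interaction was 1.45 (adjusted p 1.49e-07): (+)-JQ1 lowered it without LPS. The Myc difference with LPS was not called in the main fit (-0.35, adjusted p 0.0732) but was with a replicate block (-0.36, 0.0216). For Mycl the interaction was -2.54 (adjusted p 0.00427), a call lost with edgeR (-2.45, adjusted p 0.147). That call was also lost without Unstimulated_JQ1 replicate 1 (-2.17, 0.0629) and without Unstimulated_JQ1 replicate 3 (-2.12, 0.0702). For Max it was -0.73 (adjusted p 2.55e-10), a call lost under total-count scaling (-0.18, adjusted p 0.187) and with TPM (-0.22, 0.195). For Mxd1 it was -1.19 (adjusted p 1.35e-20), for Mxd4 1.38 (2.23e-08) and for Mnt 2.22 (1.53e-32). These 3 and the interaction for Myc kept their direction and call under every alternative run.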

How the results depend on the processing

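Of 1638 values of the members under the alternatives, 1481 kept their direction and their side of the threshold. Of the others, 57 changed sign without being called either way, 40 were no longer called and 39 became called. The remaining 21 changed direction and were called in the main fit, under the alternative or in both. The effective length offset and the count filter changed no call. Under total-count scaling the difference with LPS was -0.40 for Myc, -0.74 for Mlx and -0.86 for Mga, with log2(TPM + 1) -0.21, -0.55 and -0.65, and with log2(TPM + 0.1) -0.22, -0.58 and -0.71. On these 3 scales Mxd1 in LPS + JQ1 against LPS was 0.10, 0.025 and 0.025, and in LPS + IL-10 against IL-10 Myc was -0.20, -0.10 and -0.11 and Mlx -0.57, -0.45 and -0.47. Under total-count scaling, LPS + JQ1 against JQ1 was -0.043 for Mlx and -0.36 for Mga (-0.23 and -0.25 with the TPM scales, not called), and the interaction of LPS with (+)-JQ1 was 0.50 for Mga (0.41 and 0.46 with the TPM scales, 0.08 with TMM and 0.057 with edgeR, not called). With log2(TPM + 1) Mxd4 fell more with LPS than Mnt (-4.68 and -4.50). The median of expressed genes moved on these scales too, by construction, since each sets a different reference level.

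The number of members called for IL-10 alone was 0 with edgeR and with both limma fits. For the interaction of LPS with IL-10, where DESeq2 called 0 and 5 members had an unadjusted p under 0.05, it was 2 under total-count scaling, 1 with the replicate block and 2 with block and lane. Leaving out 1 library at a time gave 7 to 8 members called with LPS, 4 to 5 with (+)-JQ1, 0 to 1 with IL-10, 6 to 9 for LPS + JQ1 against LPS, 2 to 4 for LPS + IL-10 against LPS, 8 for LPS + JQ1 against JQ1, 7 to 9 for LPS + IL-10 against IL-10, 7 for LPS + JQ1 against LPS + IL-10, 5 to 6 for the interaction with (+)-JQ1 and 0 to 2 for that with IL-10. IL-10 alone gave 0 without Unstimulated_Untreated replicate 1 or without Unstimulated_IL10 replicate 2 or 3. No label ties a replicate number to a mouse. Every same-number correlation of deviations was over 0.1 in 2 of 8 comparisons, IL-10 alone and LPS + IL-10 against LPS. Every sample was closest to its own number in 4 of 8, a hint from the data and not from the design. The mean correlation was below 0 in LPS + JQ1 against LPS (-0.083), LPS + IL-10 against IL-10 (-0.052) and LPS + JQ1 against LPS + IL-10 (-0.125). Replicates 1 and 3 were also on different lanes, so mouse and lane cannot be told apart in this likeness. With the replicate block 3 calls were gained, Max with (+)-JQ1 alone (-0.18, adjusted p 0.044), Myc in LPS + JQ1 against LPS (-0.36, 0.0216) and Max in the interaction with IL-10 (-0.29, 0.0352), and it changed no other call. Depth limits Mycl most, with 8 reads in all in cells given (+)-JQ1 without LPS.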
